A study of Homo sapiens with 8 samples.

Results

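OVCAR3 and COV318 are established human ovarian carcinoma cell lines, and the data set out here compare their control cells before either line's matrix Gla protein gene (MGP) was altered. The comparison used 4 of the 8 libraries of the study: OVCAR3-CTR and COV318-CTR cells, each grown as an adherent monolayer (bulk) and as spheres under non-adherent conditions (OCSC, a culture that enriches for ovarian cancer stem cells), chosen by their labels for line and control status. OVCAR3-CTR was the control of a CRISPR knockout (OVCAR3-MGPKO) and COV318-CTR the empty-vector control of a lentiviral overexpression (COV318-MGP), and RNA-seq reads were counted per gene. The lines differed by more than their name: bulk OVCAR3 cells grew in RPMI with 20% serum and insulin at passage 4, bulk COV318 cells in DMEM with 10% serum at passage 18, COV318-CTR cells had also been transduced and selected with puromycin, and both lines shared the same sphere medium. The knockout was made by transfection, cell sorting and isolation of clones, and the paper also shows clones of OVCAR3-CTR. Whether the sequenced OVCAR3-CTR cells were a clone is not given. None of these can be told apart from the line. Each line gave 1 library in each culture, from the same cells. The p-values below thus rest on the spread of the line difference between bulk and OCSC. Most of the weight lies on spread shared across genes (1 residual degree of freedom against a prior of 6.54). They do not cover the spread between separately grown cultures.

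Ovarian high-grade serous carcinoma is thought to arise largely from the secretory epithelium of the fallopian tube, a Mullerian tissue, and its cells usually keep the transcription factors PAX8 and SOX17, simple keratins and cell surface antigens such as mucin 16 (the CA125 antigen). Carcinoma cells differ in how far they keep epithelial junctions, which are held by E-cadherin, claudins and desmosomes, and in how far they express mesenchymal factors such as ZEB1 that silence junction genes. Gene copy number also differs between carcinomas, with AKT2, CCNE1, MYC and MECOM among the genes that are often gained.

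Library totals were 13027676 and 22655355 counts in OVCAR3-CTR and 37393919 and 12294591 in COV318-CTR, here and below with bulk given first and OCSC second. Values are normalized counts (counts scaled by each library's size factor), and ± stands for the standard error of a fitted log2 fold change, with positive values higher in OVCAR3-CTR. The Pearson correlation across genes of log2 (normalized count + 1) was 0.959 between the bulk and OCSC libraries of OVCAR3-CTR, 0.961 between those of COV318-CTR, and from 0.798 to 0.803 between the lines. The COV318-MGP libraries stood apart: they correlated at 0.747 to 0.757 with COV318-CTR and at 0.771 to 0.786 with the OVCAR3 libraries, so that they were not nearer to the control of their own label than to the other line. Whether both groups labelled COV318 hold the same line was not tested, and COV318 stands below for the COV318-CTR libraries as labelled. All 10 markers of ovarian carcinoma cells that were checked were above 3 counts in each of the 4 libraries, with a sum of 152212 and 227061 in OVCAR3-CTR and 40998 and 16966 in COV318-CTR. Of the immune markers, 4 of 8 were in the table and summed to between 14.0 and 71.9. Of the 7 endothelial markers checked, CDH5 and CLDN5 were not in the table. MGP itself was at the floor in all 4 control libraries, with 0 and 1 counts in OVCAR3-CTR and 1 and 0 in COV318-CTR. It had 0 and 2 counts in OVCAR3-MGPKO, so that the knockout could not be checked from its mRNA in these libraries at this depth. The paper reports MGP protein by immunoblot in OVCAR3 and little or none in COV318. It also reports the loss of MGP in the knockout by RT-qPCR, western blot and immunofluorescence. Why the counts differ from the protein was not tested.

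The question was how the lines differ in lineage, driver and surface genes. Of 16382 genes tested, 2859 (17.5%) were called higher in OVCAR3-CTR and 2670 (16.3%) higher in COV318-CTR, at an adjusted p below 0.05 in the edgeR quasi-likelihood test and at least 2-fold. All 5529 called genes had the same sign in bulk and in OCSC. The test sets the line difference against its spread between these cultures, moderated across genes, so genes whose cultures went opposite ways were unlikely to be called. The shared sign is therefore no separate support for the calls. A further 231 tested genes differed by at least 2-fold in opposite directions in the cultures. In cultures of 1 cell line each, fewer cells that express a gene and less RNA per cell cannot be told apart.

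**Figure D1:**
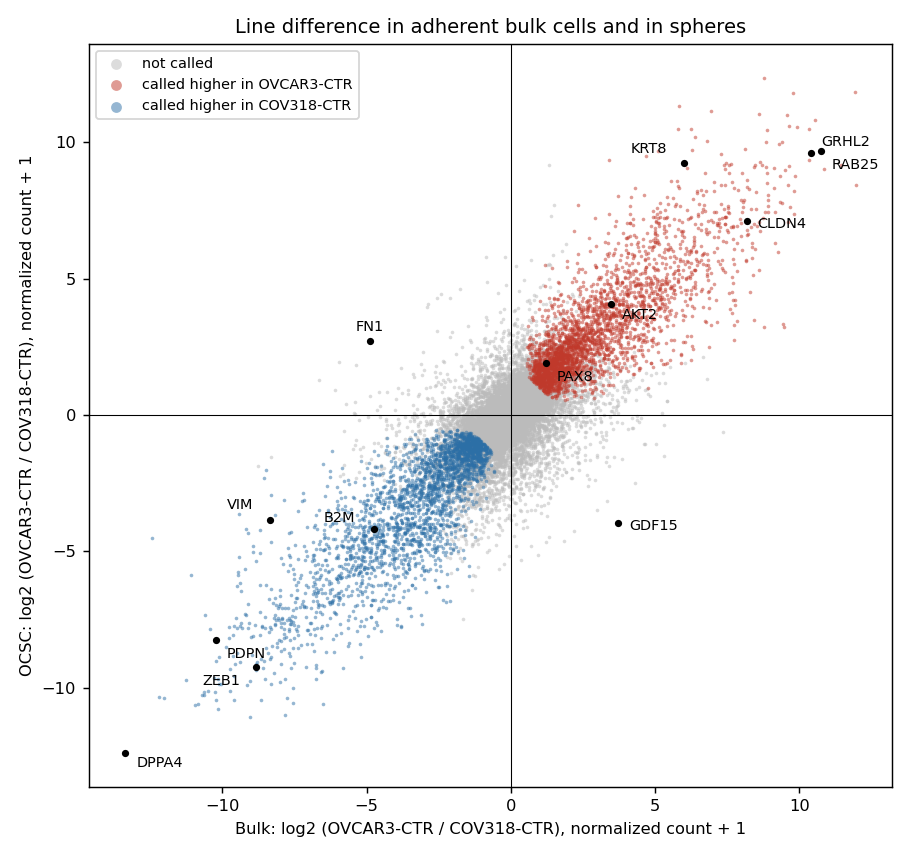
Log2 ratio of OVCAR3-CTR to COV318-CTR (normalized count + 1) for each tested gene, in bulk (x axis) and in OCSC (y axis). Red and blue points are genes called higher in OVCAR3-CTR and in COV318-CTR, and grey points were not called. Called genes lie in the lower left and upper right quadrants, whereas FN1 (-4.87 in bulk, 2.69 in OCSC) and GDF15 (3.73 and -3.95) lie in the other quadrants.

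Epithelial genes were the group with the most calls in OVCAR3-CTR. Of 38 epithelial identity genes tested, 28 (73.7%) were called higher in OVCAR3-CTR and 1 (2.63%) higher in COV318-CTR, against 17.5% and 16.3% of all genes. Their median log2 fold change was 3.13 against -0.07 over all genes tested. The transcription factor GRHL2, which maintains epithelial junction genes, was at 2797 and 4247 in OVCAR3-CTR and at 1.08 and 4.46 in COV318-CTR (adjusted p = 0.000125). Both OVCAR3-CTR libraries were thus far above both COV318-CTR libraries, which held 2 and 3 counts. The splicing regulators ESRP1 (log2 fold change 3.73, adjusted p = 0.000892) and ESRP2 (2.76, adjusted p = 0.00106), which set epithelial exon choice, and OVOL2, a repressor of mesenchymal genes, were also higher in OVCAR3-CTR. Its relative OVOL1 was called (adjusted p = 0.0328), but not by DESeq2 (adjusted p = 0.0627).

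Promoter sequences from RefSeq are shown for 3 genes of this list that were higher in OVCAR3-CTR, since ZEB factors and SNAI1, described below, bind the E-box letters CAGGTG on either strand. RAB25, a GTPase of apical recycling, was at 1718 and 2008 in OVCAR3-CTR and at 0 and 1.49 in COV318-CTR. CRB3, a component of the apical polarity complex, was at 455 and 449.9 against 35.0 and 23.8 (log2 fold change 3.95, adjusted p = 0.00217). KRT5, a basal keratin, was at 4843 and 12200.3 against 38.8 and 4.46 (adjusted p = 0.00125). Each window runs from 250 bases before to 50 bases after the gene's start in GRCh38.p14, read 5′ to 3′ on the gene's strand, with the E-box letters in capitals. The 3 were taken from the windows with a match: of the 14 called genes with a window, 5 held one (CLDN3, CRB3, ELF3, KRT5 and RAB25) and 9 did not.
RAB25, chr1:156060910-156061209, plus strand: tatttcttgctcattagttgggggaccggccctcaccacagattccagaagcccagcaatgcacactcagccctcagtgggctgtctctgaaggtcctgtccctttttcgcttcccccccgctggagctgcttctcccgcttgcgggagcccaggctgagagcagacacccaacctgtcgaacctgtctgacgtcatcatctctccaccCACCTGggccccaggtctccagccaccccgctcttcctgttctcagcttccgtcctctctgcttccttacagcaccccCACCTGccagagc
CRB3, chr19:6464021-6464320, plus strand: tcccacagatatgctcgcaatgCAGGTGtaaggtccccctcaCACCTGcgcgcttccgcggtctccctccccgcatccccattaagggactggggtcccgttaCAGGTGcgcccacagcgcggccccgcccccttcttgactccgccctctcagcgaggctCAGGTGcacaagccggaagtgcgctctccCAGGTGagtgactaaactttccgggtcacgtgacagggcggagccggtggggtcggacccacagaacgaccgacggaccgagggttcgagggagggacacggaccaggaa
KRT5, chr12:52520345-52520644, minus strand: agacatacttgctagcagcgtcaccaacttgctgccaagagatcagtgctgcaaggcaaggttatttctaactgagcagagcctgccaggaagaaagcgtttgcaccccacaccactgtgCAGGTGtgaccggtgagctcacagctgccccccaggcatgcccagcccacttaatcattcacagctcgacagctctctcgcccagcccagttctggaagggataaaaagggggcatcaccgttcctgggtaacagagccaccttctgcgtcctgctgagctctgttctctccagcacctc
The RAB25 window held 2 such matches, the CRB3 window 5 and the KRT5 window 1. At least 1 match was present in 20.6% of the 27305 promoter windows of the RefSeq table. Only 20 of the 38 epithelial genes had a window in it, under the 80% needed to compare the list with other genes, and the letters are a description and not a measured site.

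Adherens and tight junction genes followed the same direction with exceptions. E-cadherin (CDH1) was at 4791 and 9217 in OVCAR3-CTR and 272 and 369 in COV318-CTR (log2 fold change 4.39 ± 0.38, adjusted p = 0.000361), so that COV318-CTR still expressed it. CLDN4, a tight junction claudin, was at 4191 and 6952 against 13.5 and 49.0 (7.70 ± 0.49, adjusted p = 0.000148). CLDN3 and CLDN7 were higher in OVCAR3-CTR by 3.10 and 4.01 on the log2 scale, but CLDN1 went the other way, at 444 and 303 against 7794 and 2517 (-3.59 ± 0.41, adjusted p = 0.000964). CLDN1 was the list's gene called higher in COV318-CTR. Of the desmosome genes, PKP3 was at 1503 and 1788 in OVCAR3-CTR and had no counts in COV318-CTR, at least 930.4-fold and 401-fold higher, whereas DSP differed by 1.15 ± 0.43 (adjusted p = 0.0755) and DSG2 by -0.94 ± 0.32 (adjusted p = 0.054), neither of them called (DSP was called by DESeq2, adjusted p = 0.004, and both with CPM scaling, adjusted p = 0.0402 and 0.0256). EPCAM, an epithelial adhesion molecule, was higher in OVCAR3-CTR by 2.16 ± 0.36 (adjusted p = 0.00431).

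The keratins divided. KRT8 was at 41843 and 94574 in OVCAR3-CTR and at 645 and 158 in COV318-CTR (7.60 ± 1.04, adjusted p = 0.00208). Its partner KRT18 was at 34118 and 75306 against 19421 and 3561, a difference of 1.76-fold in bulk and 21.1-fold in OCSC that was not called (2.61 ± 0.97, adjusted p = 0.0745). KRT19 had the same form, at 14775 and 46976 against 9484 and 2553 (adjusted p = 0.0787), and DESeq2 called both, at an adjusted p of 0.00255 and 0.00547. KRT7 was called (3.15 ± 0.67, adjusted p = 0.0106), but not without the culture term (2.41, adjusted p = 0.145). KRT8 and KRT18 have many near-identical processed copies elsewhere in the genome, and how the counting treated shared reads was not given in the sources used here. The surface protease ST14, its inhibitors SPINT1 and SPINT2, and PRSS8, a protease that acts with it, were each higher in OVCAR3-CTR, by 5.29, 3.50, 5.46 and 7.44 on the log2 scale. The list's count ranged from 22 to 27 when each library was left out and from 27 to 31 under the other settings of normalization, test and filter.

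Mesenchymal identity genes did not form a mirror image. Of 23 tested, 8 (34.8%) were called higher in COV318-CTR and 4 (17.4%) higher in OVCAR3-CTR, with a median log2 fold change of -0.73. Over all genes tested these shares were 16.3% and 17.5%, so that the share in OVCAR3-CTR was that of all genes. ZEB1, a repressor of CDH1 and other junction genes, had 0 counts in both OVCAR3-CTR libraries and stood at 455 and 603 in COV318-CTR, at least 98.3-fold and 216-fold higher (adjusted p = 0.000575). Its relative ZEB2 was at 4.63 and 2.80 against 129 and 83.2 (adjusted p = 0.00621). The intermediate filament vimentin (VIM) was at 35.5 and 298 in OVCAR3-CTR and at 11782 and 4311 in COV318-CTR (-5.95 ± 1.11, adjusted p = 0.0068). All COV318-CTR values of these genes lay above all OVCAR3-CTR values.

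Matrix genes were split between the lines and between the cultures. COL3A1 was at 0 and 21.5 in OVCAR3-CTR and at 5606 and 514 in COV318-CTR, and COL5A1 had 0 counts in both OVCAR3-CTR libraries against 696 and 58.0 (adjusted p = 0.00129 by edgeR and 0.0528 by DESeq2). TAGLN, an actin-binding protein of contractile cells, was at 23.1 and 7.47 against 13429 and 168, so that its line difference was 581-fold in bulk and 22.5-fold in OCSC. These COV318-CTR levels were lower in OCSC than in bulk for all 3. In the other direction, COL6A1 was at 1901 and 31913 in OVCAR3-CTR and 831 and 703 in COV318-CTR (3.35 ± 1.08, adjusted p = 0.0473; 0.0606 with TMM normalization and 0.119 with all 8 libraries). The repressor SNAI1, named for its part in epithelial-mesenchymal transition, was higher in OVCAR3-CTR, at 125 and 344 against 31.8 and 50.5 (2.37 ± 0.62, adjusted p = 0.0226). N-cadherin (CDH2) was not called (-1.19 ± 0.59, adjusted p = 0.159). Without OVCAR3-CTR bulk 4 genes of the list were called higher in COV318-CTR, and without OVCAR3-CTR OCSC, COV318-CTR bulk or COV318-CTR OCSC 1, 1 and 0 were called higher in OVCAR3-CTR.

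Fibroblast markers were checked beside these genes. Their summed level was 220.5 and 454 in OVCAR3-CTR and 5806 and 603 in COV318-CTR, of which COL3A1 made up 5606 and 514. Of the 9 markers, 2 and 6 were above 3 counts in OVCAR3-CTR and 7 and 5 in COV318-CTR. COL1A2, a chain of collagen I, was called higher in OVCAR3-CTR (adjusted p = 0.0257, but 0.0933 by DESeq2) and did not pass 3 counts in COV318-CTR. PDGFRA did not pass them in the bulk library of that line. The part of another cell type in the result was not tested.

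**Figure D2:**
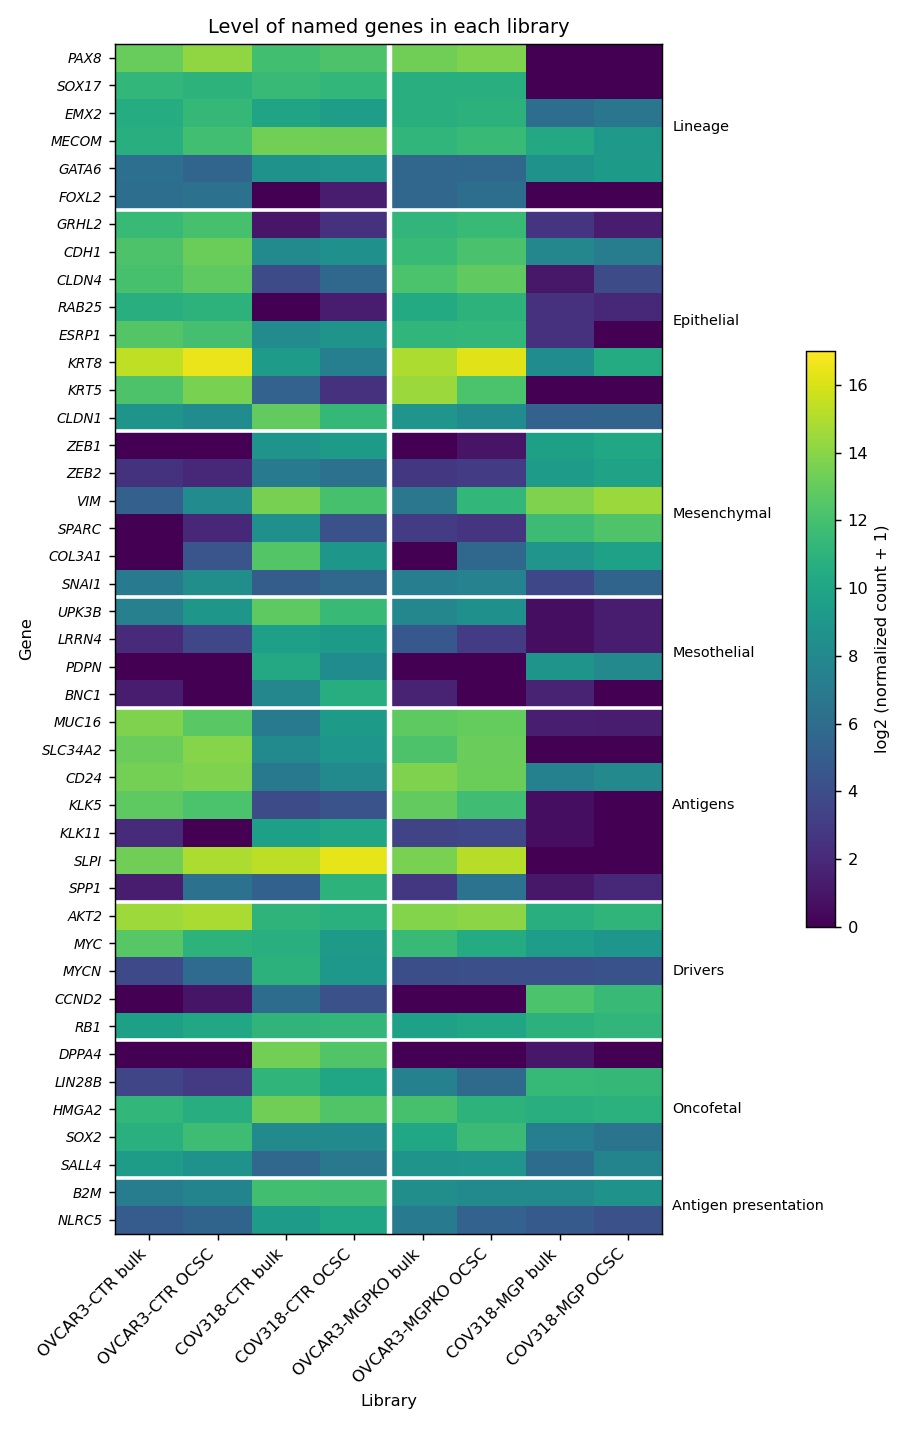
Level of named genes, as log2 of the normalized count + 1 (colour), in the 4 control libraries on the left of the white line and in the 4 libraries with altered MGP on the right. GRHL2, CDH1, CLDN4 and RAB25 are higher in OVCAR3-CTR and ZEB1, VIM, PDPN and DPPA4 higher in COV318-CTR, and COV318-MGP holds PAX8, SOX17, SLC34A2 and SLPI at or near 0.

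Of 15 Mullerian and serous lineage factors tested, 8 (53.3%) were called higher in OVCAR3-CTR and 2 (13.3%) higher in COV318-CTR (median log2 fold change 1.36). Over all genes tested these shares were 17.5% and 16.3%, so that the share in COV318-CTR was near that of all genes. PAX8, the main lineage factor of serous carcinoma, was at 8547 and 18466 in OVCAR3-CTR and 3651 and 4966 in COV318-CTR (1.56 ± 0.40, adjusted p = 0.0214), so that both lines expressed it. SOX17, its partner, was at 2456 and 2065 against 2792 and 2425 (-0.21 ± 0.30, adjusted p = 0.627). This difference was smaller than its error. MECOM, a transcription factor often gained with 3q, went the other way, at 1655 and 3704 against 10625 and 10025 (-2.06 ± 0.44, adjusted p = 0.0111), as did GATA6, a factor of endoderm and gonad (-2.97 ± 0.53, adjusted p = 0.00556). The Mullerian homeobox gene EMX2 (1.22 ± 0.38, adjusted p = 0.0402, and 0.0512 with a minimum of 50 counts) and TFAP2C (4.40 ± 0.65, adjusted p = 0.00282) were higher in OVCAR3-CTR.

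Other factors of the same list were expressed at low levels. FOXL2, a factor of ovarian granulosa cells, was at 69.4 and 81.2 in OVCAR3-CTR against 0 and 1.49 in COV318-CTR. ESR1 and PGR, the oestrogen and progesterone receptors, did not reach 10 counts in 2 control libraries and were not tested. The list's count in OVCAR3-CTR was 3 without OVCAR3-CTR OCSC, 2 without COV318-CTR bulk, 4 without COV318-CTR OCSC and 4 with a minimum of 50 counts. In COV318-CTR it was 1 without OVCAR3-CTR bulk.

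HOX genes set position along the body axis, and those of the HOXA cluster along the Mullerian tract. Of 23 tested, 19 had a positive log2 fold change, and 15 more in the table did not reach the filter. Of the 23, 10 (43.5%) were called higher in OVCAR3-CTR and 1 (4.35%) higher in COV318-CTR, against 17.5% and 16.3% of all genes. HOXA9, the gene of the fallopian tube segment, was at 159 and 189 in OVCAR3-CTR and 2.69 and 1.49 in COV318-CTR (adjusted p = 0.0023). HOXB2 was at 267 and 549 against 0 and 1.49. HOXA10, the uterine member, had a negative value without a call (-1.83 ± 0.66, adjusted p = 0.0668; 0.0495 with CPM scaling). Many HOX genes overlap a neighbour or an antisense gene, and their counts could not be told apart where the counting strand is not given. The count in OVCAR3-CTR was 6 without COV318-CTR bulk and 6 with a minimum of 50 counts, and that in COV318-CTR was 0 without COV318-CTR bulk and 2 without OVCAR3-CTR OCSC.

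Mesothelial markers were higher in COV318-CTR. Of 7 tested, 5 (71.4%) were called higher in COV318-CTR by edgeR, against 16.3% of all genes tested. By edgeR 0 were called higher in OVCAR3-CTR, with 0 also by DESeq2 and 0 at an unadjusted p under 0.05 and at least 2-fold. KLK11, described with the antigens, was the fifth and was not among the 7 mesothelial markers fixed for the check of cell types. UPK3B, a mesothelial and urothelial membrane protein, was at 167 and 503 in OVCAR3-CTR and 7087 and 2757 in COV318-CTR (-3.91 ± 0.72, adjusted p = 0.00661). LRRN4 was at 3.08 and 11.2 against 773 and 603 (adjusted p = 0.000701), and podoplanin (PDPN) had 0 counts in both OVCAR3-CTR libraries against 1198 and 300.2. BNC1, a zinc finger protein of mesothelium and basal epithelium, was at 1.54 and 0 against 232 and 1541. Every one of these 4 genes had its COV318-CTR values above its OVCAR3-CTR values. Calretinin (CALB2), a mesothelial marker, was not in the table, and DES and ITLN1 did not pass the filter. MSLN (-0.74 ± 0.34, adjusted p = 0.132) and WT1 (0.18 ± 0.43, adjusted p = 0.77), which mesothelium shares with serous carcinoma, were not called. The count of 5 was the same when each library was left out. The endothelial genes VWF (-3.49 ± 0.50, adjusted p = 0.00239) and KDR (-2.40 ± 0.53, adjusted p = 0.012, and 0.0585 without the culture term) were also higher in COV318-CTR, 2 of 4 tested, and 1 of 4 without OVCAR3-CTR bulk, COV318-CTR bulk or COV318-CTR OCSC.

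Surface and secreted antigens gave 16 of 35 genes (45.7%) called higher in OVCAR3-CTR and 6 (17.1%) higher in COV318-CTR (median log2 fold change 1.59). Over all genes tested the shares were 17.5% and 16.3%. MUC16, which carries the CA125 antigen, was at 13680.5 and 6566 in OVCAR3-CTR and 123 and 619.7 in COV318-CTR (5.09 ± 0.87, adjusted p = 0.0048). SLC34A2, a phosphate transporter, was at 9007 and 15647 against 267 and 490.4 (5.04 ± 0.41, adjusted p = 0.000309). NECTIN4, an adhesion molecule, was at 282 and 470.5 against 0.54 and 1.49. In each of these 3 genes the OVCAR3-CTR values lay above the COV318-CTR values, whereas MSLN and FOLR1, surface antigens as well, were not called (FOLR1 1.59 ± 0.84, adjusted p = 0.181).

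Surface proteins that serve as stem cell markers were called in both directions. CD24 was at 11258 and 13617 in OVCAR3-CTR and 116 and 265 in COV318-CTR (6.14 ± 0.48, adjusted p = 0.000271), with near-identical copies elsewhere in the genome. CD44, the hyaluronan receptor, was at 109 and 1045 in OVCAR3-CTR and had 0 counts in both COV318-CTR libraries, at least 67.8-fold and 234-fold higher (adjusted p = 0.000566). CD133 (PROM1) was at 23.1 and 148 against 2.15 and 0 (adjusted p = 0.0216). No COV318-CTR library held more than 4 counts of CD44 or PROM1. CD73 (NT5E) was higher in COV318-CTR, at 91.0 and 69.1 in OVCAR3-CTR against 2620.3 and 348 (-3.59 ± 0.64, adjusted p = 0.00556), as was CD90 (THY1), at 1.54 and 0 against 30.2 and 55.0 (adjusted p = 0.0151). These 5 genes come from more than 1 list and were picked with their values known.

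Secreted proteases and inhibitors went both ways. The kallikrein KLK5 was at 6962 and 4754 in OVCAR3-CTR and 13.5 and 19.3 in COV318-CTR (8.52 ± 0.50, adjusted p = 0.000125), and KLK6 and KLK8 were higher in OVCAR3-CTR by 5.85 and 4.96 on the log2 scale. KLK11, in the same cluster on chromosome 19, was at 3.08 and 0 against 771 and 1031 (adjusted p = 0.000426). KLK10 lay between them without a call (-0.27 ± 0.42, adjusted p = 0.649). SLPI, a secreted inhibitor of leukocyte proteases, had high levels in both lines, at 10217 and 30576 against 40998 and 83895 (-1.73 ± 0.54, adjusted p = 0.0428, and 0.121 without the culture term). MUC1 (-2.78 ± 0.63, adjusted p = 0.0137) and osteopontin (SPP1, -4.57 ± 0.48, adjusted p = 0.000713) were higher in COV318-CTR. SPP1 was at 1.54 and 85.9 against 38.2 and 2048, and its call was lost without the culture term (adjusted p = 0.136) and turned in sign without COV318-CTR OCSC (0.22). The 6 calls in COV318-CTR became 1 without OVCAR3-CTR bulk, 3 without COV318-CTR bulk and 3 without COV318-CTR OCSC.

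**Figure D3:**
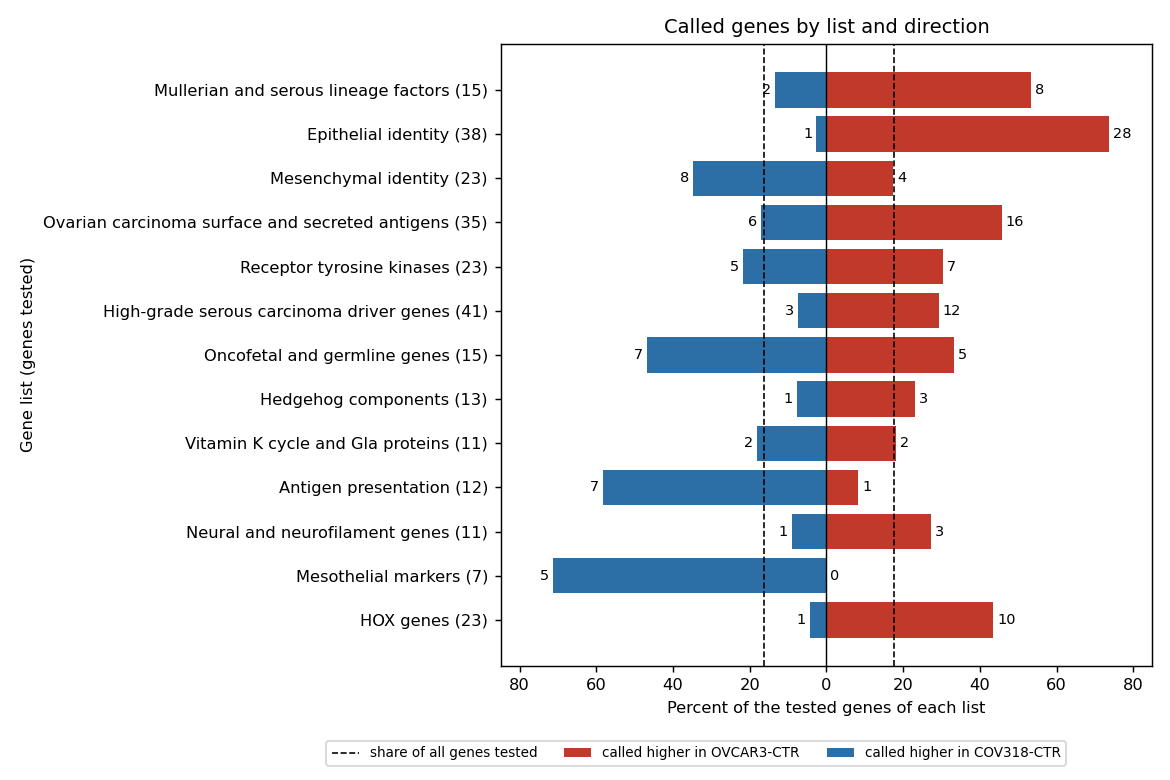
Percent of the tested genes of each list that were called higher in OVCAR3-CTR (red, to the right) or in COV318-CTR (blue, to the left), with the number of genes at each bar and the number tested in brackets. The dashed lines mark the 17.5% and 16.3% of all tested genes. Epithelial identity (28 of 38) reaches furthest to the right and mesothelial markers (5 of 7) furthest to the left.

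Of 23 receptor tyrosine kinases tested, 7 (30.4%) were called higher in OVCAR3-CTR and 5 (21.7%) higher in COV318-CTR (median log2 fold change 0.68). The shares of all genes were 17.5% and 16.3%. ERBB3, the partner receptor of ERBB2, was at 2706 and 4487 in OVCAR3-CTR and 16.2 and 11.9 in COV318-CTR (7.87 ± 0.48, adjusted p = 0.000131). EGFR was at 5269 and 1238 against 1114 and 367 (2.00 ± 0.32, adjusted p = 0.00387; 0.0935 without the culture term). MET, the receptor of hepatocyte growth factor, was higher in COV318-CTR (-1.69 ± 0.45, adjusted p = 0.0246), as were FGFR3 (-1.93 ± 0.31, adjusted p = 0.00375) and IGF1R (-1.73 ± 0.34, adjusted p = 0.00795). KIT, the stem cell factor receptor, was at 15.4 and 642 in OVCAR3-CTR and 0.54 and 0 in COV318-CTR, so that most of its counts came from the OVCAR3-CTR spheres. AXL (2.06 ± 0.87, adjusted p = 0.107) and ERBB4 (-0.77 ± 0.39, adjusted p = 0.166) were not called. Without COV318-CTR OCSC 2 were called higher in OVCAR3-CTR, and 3 without OVCAR3-CTR bulk and 2 without COV318-CTR bulk were called higher in COV318-CTR.

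Of 41 driver genes of high-grade serous carcinoma, 12 (29.3%) were called higher in OVCAR3-CTR and 3 (7.32%) higher in COV318-CTR (median log2 fold change 0.48). Over all genes tested these shares were 17.5% and 16.3%. AKT2, a kinase of the PI3K pathway at chr19:40230317-40285536 (hg38), was at 23419.6 and 29792 in OVCAR3-CTR and 2102 and 1785 in COV318-CTR, 11.1-fold and 16.7-fold higher (3.77 ± 0.47, adjusted p = 0.00144). AKT1 differed by 0.78 ± 0.35 (adjusted p = 0.121). MYC was at 6274 and 2027 against 1634 and 627 (1.82 ± 0.32, adjusted p = 0.00515, and 0.0823 without the culture term), whereas MYCN was at 12.3 and 59.7 against 1938 and 532 (-4.92 ± 0.94, adjusted p = 0.0073).

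Cell cycle drivers were called in both directions. CCNE1, cyclin E1, was at 4472 and 3848 in OVCAR3-CTR and 1653 and 2596 in COV318-CTR, 2.71-fold and 1.48-fold higher in OVCAR3-CTR, and was not called (adjusted p = 0.0643). CDKN2A, the p16 and p14ARF locus, was higher in OVCAR3-CTR (2.05 ± 0.41, adjusted p = 0.00908), and RB1 higher in COV318-CTR, at 813 and 1097 against 2208 and 2477 (-1.31 ± 0.30, adjusted p = 0.0151). CCND2 was at 0 and 0.93 in OVCAR3-CTR and 62.5 and 17.8 in COV318-CTR. NF1, an inhibitor of RAS, was higher in OVCAR3-CTR (1.89 ± 0.37, adjusted p = 0.00814). The count of 12 became 6 without OVCAR3-CTR bulk, 5 without OVCAR3-CTR OCSC, 7 without COV318-CTR bulk and 4 without COV318-CTR OCSC, and the count of 3 became 1 without OVCAR3-CTR bulk or COV318-CTR bulk.

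Oncofetal and germline genes gave 7 of 15 (46.7%) called higher in COV318-CTR and 5 (33.3%) higher in OVCAR3-CTR. Over all genes tested these shares were 16.3% and 17.5%. DPPA4, a chromatin protein of pluripotent and germ cells at chr3:109326144-109337546 (hg38), had 0 counts in both OVCAR3-CTR libraries and stood at 10568 and 5371 in COV318-CTR, at least 2284-fold and 1918-fold higher (adjusted p = 0.00013). Its neighbour DPPA2 was at 0 against 107 and 80.2. LIN28B, which blocks maturation of let-7 microRNAs, was at 10.8 and 6.53 against 2236 and 1074 (-7.51 ± 0.45, adjusted p = 0.000125). HMGA2 (-1.92 ± 0.35, adjusted p = 0.00625) and IGF2BP3 (-1.74 ± 0.37, adjusted p = 0.0107), known as let-7 targets, were also higher in COV318-CTR. Whether let-7 has a part in this was not tested. OVCAR3-CTR held the higher level of other stem cell factors: SOX2 was at 1796 and 3336 against 267 and 273 (3.17 ± 0.37, adjusted p = 0.00106), and SALL4 (2.85 ± 0.61, adjusted p = 0.0109) and KLF4 (3.55 ± 0.53, adjusted p = 0.0028) had the same direction. The 5 calls in OVCAR3-CTR became 3 without OVCAR3-CTR bulk or COV318-CTR bulk.

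Antigen presentation genes were higher in COV318-CTR, 7 of 12 tested (58.3%) against 1 (8.33%) higher in OVCAR3-CTR. Over all genes tested these shares were 16.3% and 17.5%. Beta-2 microglobulin (B2M), the light chain of MHC class I, was at 140.3 and 199 in OVCAR3-CTR and 3772 and 3607 in COV318-CTR, 26.9-fold and 18.1-fold lower in OVCAR3-CTR (-4.46 ± 0.36, adjusted p = 0.000304). NLRC5, the transactivator of class I genes, was at 29.3 and 43.9 against 656 and 1067 (adjusted p = 0.000521). HLA-B (-4.62 ± 0.35, adjusted p = 0.000247) had the same direction, but genes of the MHC region are near-identical to each other and to alternate sequences of the genome build, and their counts are uncertain. CIITA, the class II transactivator, was higher in OVCAR3-CTR, at 74.0 and 246 against 0.54 and 0. IRF1 was not called (-0.62 ± 0.36, adjusted p = 0.228). The 7 calls were kept in number when each library was left out, and the call in OVCAR3-CTR became 2 without COV318-CTR bulk or with DESeq2 and 0 with a minimum of 50 counts. With HLA-F, at 0 in both OVCAR3-CTR libraries, set to the floor of 3 counts per library, the list's median log2 fold change was -2.22 in place of -2.85.

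Of 13 Hedgehog components tested, 3 (23.1%) were called higher in OVCAR3-CTR and 1 (7.69%) higher in COV318-CTR, against 17.5% and 16.3% of all genes. GLI1, the pathway's transcription factor and target, was at 521 and 27.1 in OVCAR3-CTR and 5.92 and 5.94 in COV318-CTR (4.80 ± 1.21, adjusted p = 0.0201), so that its difference was 88.0-fold in bulk and 4.55-fold in OCSC. The signal transducer SMO was at 609 and 654 against 131 and 19.3 (3.50 ± 0.74, adjusted p = 0.0109), and the receptor PTCH1 was not called (0.32 ± 0.51, adjusted p = 0.666). The co-receptor CDON was higher in COV318-CTR (-2.61 ± 0.51, adjusted p = 0.00816). Without COV318-CTR bulk or COV318-CTR OCSC 1 was called higher in OVCAR3-CTR and 0 in COV318-CTR. Gla proteins carry the modification that MGP needs, and the vitamin K cycle serves to make it. Of 11 tested genes of this list, which was not limited to those roles, 2 (18.2%) were called in each direction. These shares were close to the 17.5% and 16.3% of all genes. PRRG4, a membrane Gla protein, was at 1517 and 1788 in OVCAR3-CTR against 58.7 and 26.8 (5.31 ± 0.48, adjusted p = 0.000415), BMP2, a ligand that MGP binds, was at 1.54 and 0 against 85.1 and 46.1, and the carboxylase GGCX was not called (0.49 ± 0.38, adjusted p = 0.352). The 2 calls in OVCAR3-CTR became 1 without COV318-CTR bulk, and the 2 in COV318-CTR became 1 without either OVCAR3-CTR library. Of 11 neural genes, 3 were called higher in OVCAR3-CTR, among them the neurofilament gene INA at 387 and 309 against 11.8 and 25.3, and 1 higher in COV318-CTR, the granin SCG2 at 0 against 389.9 and 219.9; without COV318-CTR OCSC 1 was called in OVCAR3-CTR and without OVCAR3-CTR OCSC 3 were called in COV318-CTR.

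Some genes were heard in 1 line only. At a minimum of 100 normalized counts in both libraries of a line and at most 3 counts in each library of the other, 119 genes were heard only in OVCAR3-CTR and 204 only in COV318-CTR. The 119 include PSMC4, a gene that every cell uses, at 103 in its lower OVCAR3-CTR library. Its values are uncertain, and some genes may be heard in 1 line only because of how reads were counted. This was not tested. Among the 15 protein-coding genes with the largest difference in each direction, those of OVCAR3-CTR included epithelial (PKP3, EVPL, RAB25, GRHL2), signalling (NOS1, GUCY1A1, CBLC) and regulatory genes (RUNX1, ZMYM2). EVPL, envoplakin of the desmosome and cornified envelope, was at 1972 and 3534 against 0.54 and 1.49. NOS1, a nitric oxide synthase best known from neurons, was at 1369 and 3560.2 against 0.54 and 0. RUNX1, a transcription factor of blood and epithelia, was at 3832 and 2055 against 1.08 and 2.97. The atypical cadherin FAT1 was at 8194 and 5562 against 9.16 and 8.92 (9.58 ± 0.49, adjusted p = 0.000125).

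In COV318-CTR the same rule named DPPA4, transporters and matrix genes, and zinc finger genes. SLC7A7, a transporter of cationic amino acids, was at 6.17 and 3.73 in OVCAR3-CTR and 13232 and 7234 in COV318-CTR (adjusted p = 0.000125). IFI16, a sensor of nuclear DNA, had 0 counts in both OVCAR3-CTR libraries and stood at 1434 and 1098 in COV318-CTR. NDN, an imprinted gene, and CELF2, a splicing factor, were at 0 against 1652 and 1232, and 1606 and 1216. COL11A1, a fibrillar collagen, was at 1.54 and 0.93 against 6231 and 1626. ZNF544, ZNF578 and ZNF415, zinc finger genes on chromosome 19, were at or below 1.87 in OVCAR3-CTR and between 843 and 3256 in COV318-CTR. ETAA1, which activates the replication stress kinase ATR, had 0 counts in both OVCAR3-CTR libraries against 1115 and 939.

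The position of the genes was examined with the GENCODE 44 annotation of hg38. Within 1 Mb of AKT2, 44 genes were tested, of which 40 had a positive log2 fold change, 31 were called higher in OVCAR3-CTR and 0 higher in COV318-CTR by edgeR (median 2.75; neighbouring genes are not independent). By DESeq2 0 were called higher in COV318-CTR, and 1 was at least 2-fold higher there at an unadjusted p under 0.05. On the proximal side, LRFN1 was at 1172 and 1244 against 21.0 and 22.3, SAMD4B at 15107 and 11596 against 1508 and 1302, and PAF1, of the elongation complex, at 14072 and 21653 against 2993 and 3211. Next to AKT2, MAP3K10 was at 2598 and 1473 against 127 and 53.5 and PLD3 at 20225 and 33634 against 1429 and 578. On the distal side, SHKBP1 (-0.24 ± 0.57) and SNRPA (0.61 ± 0.34) were not called. FBL and PSMC4, which every cell uses, were at or below 159 normalized counts in all 8 libraries, and their values are uncertain. Gene copy number was not measured.

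Other driver loci were examined in the same way, without a test between loci. Within 1 Mb of CDKN2A, where 10 of 12 genes had a positive log2 fold change, 6 of 12 genes tested were called higher in OVCAR3-CTR and 0 higher in COV318-CTR by edgeR, by DESeq2 or at an unadjusted p under 0.05 and 2-fold (median 1.45), among them MTAP (1.34 ± 0.33, adjusted p = 0.0184). Around CCNE1 and URI1, 2 of 7 genes were called in each direction, and around ERBB2 2 of 35 in each direction (median 0.02). Around MECOM 2 of 12 were called higher in OVCAR3-CTR and 3 higher in COV318-CTR. Over all genes tested 17.5% were called higher in OVCAR3-CTR and 16.3% higher in COV318-CTR, and the counts of the loci were not tested against these shares.

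**Figure D4:**
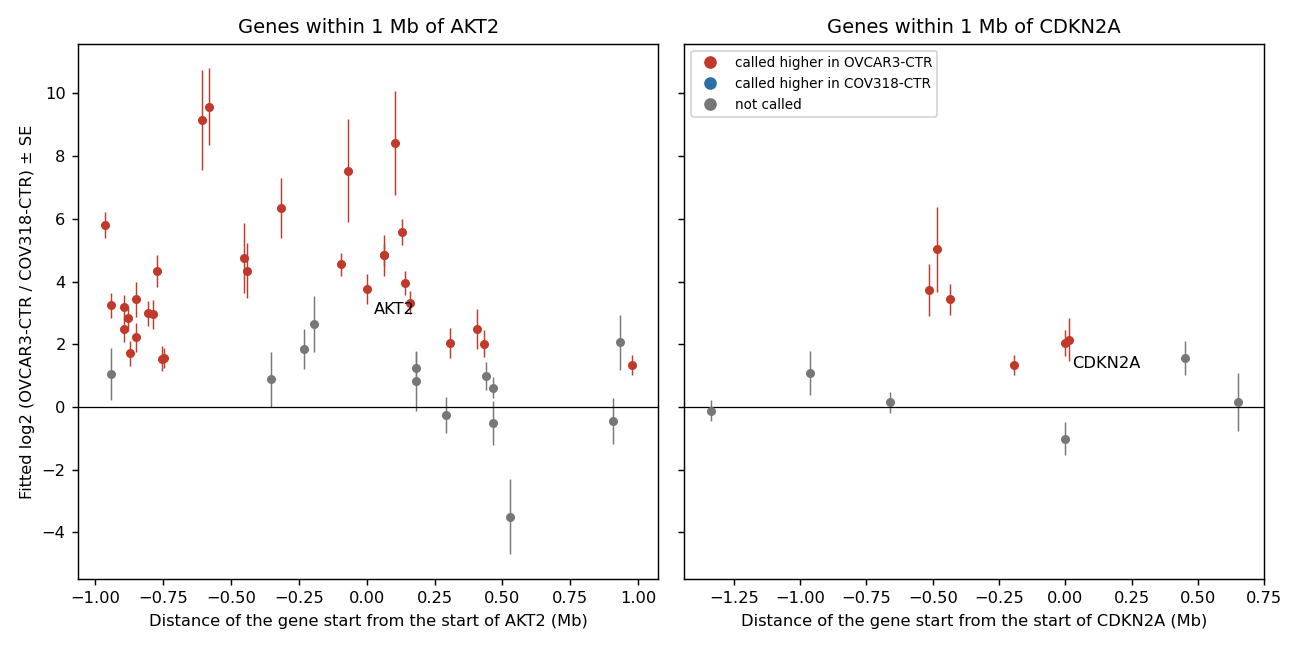
Fitted log2 fold change (± standard error) of each tested gene within 1 Mb of AKT2 (left) and CDKN2A (right), against the distance of its start from the start of that gene in Mb. Genes with any part inside that range are included. Red points were called higher in OVCAR3-CTR and grey points not called. Around AKT2 most genes on the side at negative distances lie above 1, and several at positive distances lie near 0.

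Over 376 windows of 5 Mb with at least 15 tested genes, the median log2 fold change of a window ranged from -3.80 to 1.88, and 26 windows were at 1 or more and 29 at -1 or less. The lowest was chr15:25000001-30000000, the Prader-Willi region of imprinted small nucleolar RNAs, with 14 of 20 genes called higher in COV318-CTR. Its host transcript SNHG14 was at 289.9 and 587 in OVCAR3-CTR and 1619 and 2023 in COV318-CTR (-2.13 ± 0.34, adjusted p = 0.00381), and GABRG3, a GABA receptor subunit, had 0 counts in both OVCAR3-CTR libraries against 594 and 158. Copies of SNORD116 made up 12 of the 20 genes and 9 of the 14 calls. Each copy was counted as a gene of its own, but the copies resemble each other in sequence and their separate values are uncertain. The other 8 genes had a median of -2.53 with 5 called higher in COV318-CTR and 1 higher in OVCAR3-CTR. They are fewer than the 15 genes asked of a window, so they were not ranked against other windows.

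The next lowest window, chr5:140000001-145000000, holds the protocadherin clusters, with 46 of 80 genes called higher in COV318-CTR. Entries of the clusters overlap, such as PCDHA10, PCDHA11 and PCDHA12, which all end at 141012347. Their separate values are uncertain and they are not independent calls. Entries of the clusters made up most of the 46 calls, and the median of the window without them was not computed. PCDHB5, a single-exon cadherin of the cluster, was at 3.08 and 4.67 in OVCAR3-CTR and 1041 and 479 in COV318-CTR (-7.37 ± 0.64, adjusted p = 0.000361), while NDFIP1 in the same window went the other way (1.59 ± 0.32, adjusted p = 0.00897). In chr19:20000001-25000000, a cluster of KRAB zinc finger genes, 22 of 31 were called higher in COV318-CTR and 0 higher in OVCAR3-CTR by edgeR, by DESeq2 or at an unadjusted p under 0.05 and 2-fold. ZNF257 was at 1.54 and 0.93 against 825 and 956, and ZNF91 at 444 and 511 against 2306 and 2873 (-2.43 ± 0.31, adjusted p = 0.00164). The medians of these 3 windows had the same sign in bulk (-2.99, -2.91 and -2.37) and in OCSC (-4.06, -2.31 and -2.49). With genes at 0 set to the floor, they were -3.62, -2.95 and -2.43. In the libraries with altered MGP, described below, the same windows did not repeat this: their medians were 4.86 over 8 tested genes, 0.46 over 48 and -0.43 over 19. There SNHG14 was at 573 and 423 in OVCAR3-MGPKO and 1.10 and 0 in COV318-MGP. Of the 29 windows at -1 or less in the controls, 23 had a negative median there and 6 a positive one, and all 26 windows at 1 or more had a positive one.

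Windows higher in OVCAR3-CTR had smaller medians. The first 5 Mb of chromosome 19 had a median of 1.71, with 74 of 132 genes called higher in OVCAR3-CTR, among them STK11 (2.12 ± 0.31, adjusted p = 0.00273), the kinase upstream of AMPK, and GPX4 (1.71 ± 0.35, adjusted p = 0.00945), which removes lipid peroxides. At chr8:140000001-145000000 the median was 1.67 and 35 of 64 genes were called, among them the cytoskeletal linker PLEC (3.57 ± 0.40, adjusted p = 0.000915). Some of these calls rest on low counts in both lines and are uncertain, such as PUF60 (111 and 117 against 32.3 and 4.46), HSF1 and SCRIB. The highest median, 1.88 at chr6:45000001-50000000, was 0.87 in bulk and 2.48 in OCSC, with CLIC5 at 1368 and 4134 against 560.2 and 289.8.

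**Figure D5:**
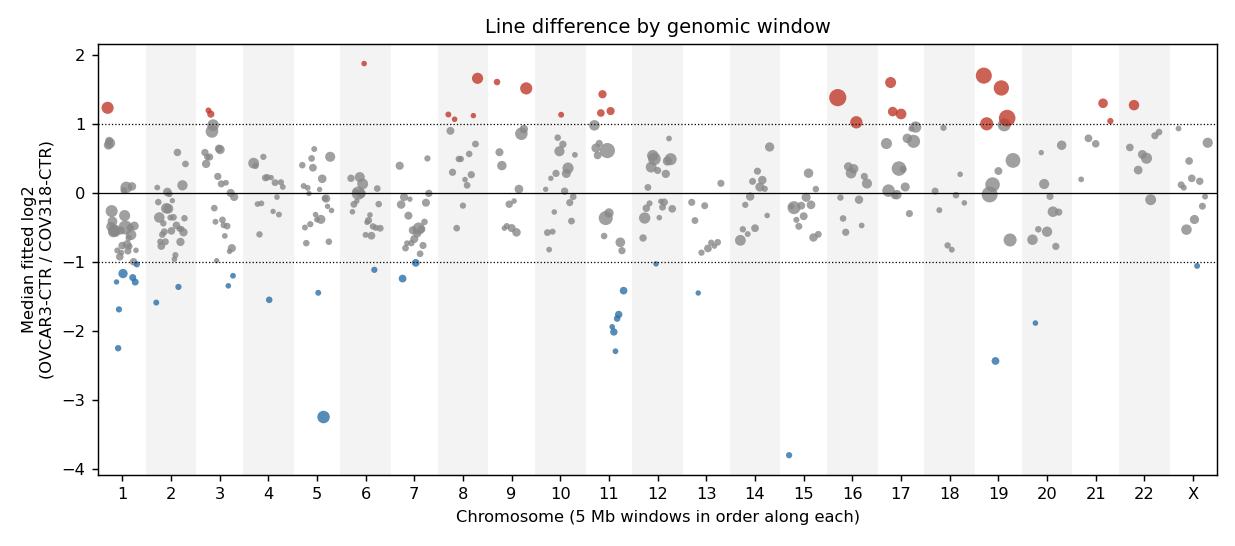
Median fitted log2 fold change of OVCAR3-CTR over COV318-CTR in 5 Mb windows, in order along each chromosome, with point size in proportion to the number of tested genes. Red points are windows at 1 or more (26) and blue points windows at -1 or less (29). The lowest lie on chromosomes 15, 5 and 19, and a row of low windows lies on chromosome 11.

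The libraries with altered MGP gave a separate contrast of the lines as labelled. They entered the comparison above only through the size factors, and with factors from the 4 control libraries alone 2973 genes were called higher in OVCAR3-CTR and 2654 higher in COV318-CTR. Of 16844 genes tested there, 3398 (20.2%) were called higher in OVCAR3-MGPKO and 2937 (17.4%) higher in COV318-MGP. Of the 2815 genes called higher in OVCAR3-CTR and tested in both fits, 1626 (57.8%) were called higher in OVCAR3-MGPKO and 105 (3.73%) higher in COV318-MGP. Of the 1962 called higher in COV318-CTR, 764 (38.9%) were called higher in COV318-MGP and 210 (10.7%) higher in OVCAR3-MGPKO. COV318-MGP stood apart from COV318-CTR: 6 of the 10 ovarian carcinoma markers were at or under 3 counts in its bulk library and 7 in its OCSC library, PAX8 among them.

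All 28 epithelial genes called higher in OVCAR3-CTR were also called higher in OVCAR3-MGPKO, against 57.8% of all genes called higher in OVCAR3-CTR and tested in both fits. Of the driver genes 7 of 12 were called again. Of the HOX genes 3 of 10 were, and 2 were called higher in COV318-MGP. CLDN1 turned, at 458 and 303 in OVCAR3-MGPKO and 39.6 and 41.5 in COV318-MGP. ZEB1 was at 0 and 0.87 against 796 and 1099 and VIM at 108 and 2499 against 13625 and 22544, in the direction of the controls. AKT2 was at 14693 and 17280 against 1716 and 2256 (3.02 ± 0.27, adjusted p = 5.24e-05).

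Several genes high in COV318-CTR were low in COV318-MGP. DPPA4 was at 0 in both OVCAR3-MGPKO libraries and at 1.10 and 0 in COV318-MGP. Of the 7 antigen presentation genes called higher in COV318-CTR, 6 were tested and 0 were called higher in COV318-MGP by edgeR or at an unadjusted p under 0.05 and 2-fold, with B2M at 342 and 279 against 272 and 407. UPK3B was at 238 and 375 against 0.55 and 1.43, and SLPI at 12122 and 36215 against 0 and 0. FAT1, heard in OVCAR3-CTR and near 0 in COV318-CTR, was at 6222 and 2599 against 5413 and 6014. Of the 119 genes heard only in OVCAR3-CTR, 99 were at 100 or more in both OVCAR3-MGPKO libraries and 47 at the floor in both COV318-MGP libraries. Of the 204 heard only in COV318-CTR, 29 were at 100 or more in both COV318-MGP libraries, 98 were at the floor there, and 157 were at the floor in both OVCAR3-MGPKO libraries. Whether the share found again differs between the directions was not tested.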

How the data were processed

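RNA from 8 cultures was sequenced, and the authors deposited a table of counts per gene, made from paired reads with STAR on hg38 (version 2.7.5c in the submitters' processing notes) using its own gene counts, and a normalized signal per library (the counts divided by a DESeq2 size factor), which was checked against the counts. The study's methods name TruSeq kits of 3 kinds (poly-A enriched, ribosomal RNA depleted and transcriptome capture), but which of them served which library, the annotation and the strand counted are not given in the sources used here. Starting from the deposited counts, size factors (median of ratios over genes above 0 in all 8 libraries) were used as offsets in edgeR 4.0.16 (R 4.3.3; quasi-likelihood test, culture and line as terms, 4 control libraries, 1 residual degree of freedom, prior degrees of freedom 6.54), after a filter of 10 counts in at least 2 libraries. Genes were called at a Benjamini-Hochberg adjusted p below 0.05 and a log2 fold change of at least 1. Log2 ratios per culture used a pseudocount of 1, folds per culture are plain ratios of normalized counts, and at-least folds used a floor of 3 counts per library and cover counting error only. The 4 libraries with altered MGP were fitted separately. Counts of this comparison were simulated for 16004 genes, with 1 dispersion of 0.135 for all genes and the same line difference in both cultures. Of 200 changed genes, 47 of 100 changed by log2 2 and 95 of 100 changed by log2 3 were recovered. Of 15804 unchanged genes, 1 was called. The data hold more called genes and differences between cultures, so these rates may not carry over to them. Genes were placed with GENCODE 44 (17042 by symbol, 308 by an older symbol, 2989 unmatched). The members and gene lists were chosen with earlier results of these data known. Genes were named as members of those lists or as the 15 called protein-coding genes per direction with the largest fold (the smaller of both cultures) and at least 200 normalized counts in both libraries of the higher line. Some genes are not reported here. Those shown around drivers and in windows were chosen after their values were seen.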

Additional observations from a re-analysis of the deposited data

Results flagged for a closer look

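In 5 genes of the lists the line difference was at least 2-fold one way in bulk and at least 2-fold the other way in OCSC, and in 4 of them the 95% counting interval left out 0 in both cultures. These rest on 1 library for each line and culture, and whether bulk and OCSC differ was not tested. The log2 ratio of FN1, fibronectin, was -4.872 in bulk and 2.693 in OCSC, with normalized counts of 455 and 4781 in OVCAR3-CTR and 13351 and 739 in COV318-CTR. The log2 ratio of MMP2, a matrix protease, was -2.632 in bulk and 1.584 in OCSC. GDF15, a stress-induced cytokine, had 3.731 in bulk and -3.949 in OCSC, at 1685 and 27.1 in OVCAR3-CTR and 126 and 432 in COV318-CTR. MAP2, a neuronal microtubule protein, had -1.58 in bulk and 1.607 in OCSC. The fifth, LUM, a matrix proteoglycan, had -1.415 in bulk, where its interval of -3.966 to 0.108 held 0, and 2.74 in OCSC, on 3 to 38 counts a library. None of the 5 was called in the fit of both cultures.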

How the results depend on the processing

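Leaving out a library also drops the culture term, and the lone library of a line is then assumed to vary like the other line. The count of genes called ranged from 1565 (without COV318-CTR OCSC) to 2261 for OVCAR3-CTR and from 1560 (without the same library) to 1892 for COV318-CTR when each library was left out, with 1577 and 1572 without COV318-CTR bulk and 1762 for COV318-CTR without OVCAR3-CTR bulk. With a log2 fold change of at least 2, 1846 genes were called higher in OVCAR3-CTR. Counts under the other settings stayed within 1.5 times of 2859 and 2670, and CPM scaling moved the median log2 fold change of all genes by -0.103. Genes heard in 1 line only numbered 187 in OVCAR3-CTR and 311 in COV318-CTR at a minimum of 50 normalized counts, 26 and 55 at 500, and 203 in OVCAR3-CTR with a floor of 10 counts. With windows of 10 Mb, 14 had a median of at least 1. Of 130 genes named and called, 94 kept their call whichever library was left out, and 119 kept it under all other normalizations, tests and filters. SPP1, which was called, turned in sign without COV318-CTR OCSC (0.22). Of genes that were not called, GDF15 turned with CPM scaling (-0.049), DESeq2 (-0.104) and without OVCAR3-CTR bulk (-3.354), MAP2 with CPM scaling (-0.101), without the culture term (-0.267) and with all 8 libraries (-0.415), and to -0.885 and -0.967 without either OCSC library, FN1 reached 1.827 and MMP2 1.783 without COV318-CTR bulk, KLK10 0.016 and 0.026 and SHKBP1 0.104 and 0.127 without either bulk library, and WT1 -0.955 and LUM -1.081 without OVCAR3-CTR OCSC. The cause was not tested. The fit paired the lines by culture, and without that term 2752 and 2600 genes were called. The labels give no replicate numbers, and 1 library a line and culture limits the precision throughout.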

Other observations

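Runs of at least 3 neighbouring genes that were at or under 3 counts in both libraries of a line and reached 30 normalized counts in each library of the other were looked for after the values were seen. On chromosome 13, between 19633659 and 20091829, the 4 genes MPHOSPH8, PSPC1, ZMYM5 and ZMYM2 had 0 counts in both COV318-CTR libraries. ZMYM2, a zinc finger protein of chromatin complexes, was at 3914 and 3696 in OVCAR3-CTR, and MPHOSPH8, a reader of methylated histone H3, was at 621 and 975. In COV318-MGP the same genes were expressed, with ZMYM2 at 2437 and 3275 and MPHOSPH8 at 885 and 502, so that the labelled COV318 libraries differed from each other at this locus as well. Another such run, silent in COV318-CTR, held TGFA, ADD2 and VAX2 on chromosome 2, and on chromosome X PWWP3B, RADX and RNF128 were silent in OVCAR3-CTR. Gene copy number and DNA sequence were not measured, and the reason for these runs was not tested.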
